A study of Mus musculus with 3 samples.

Results

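The genes described are 9 members of the PI3 kinase family and its opposing lipid phosphatases: the catalytic subunits Pik3ca, Pik3cb, Pik3cd and Pik3cg, the regulatory subunits Pik3r1, Pik3r2, Pik3r3 and Pik3r4, and the phosphatase Inpp4b. They were taken by gene name from the 21107 gene names on the array, whatever their values, and have 86 of the 170293 probes analysed. Each gene was set beside its window, which holds the other probes within 500 kb of the gene's first and last probe. The study measured DNA copy number in 3 mouse neurosphere lines, floating cultures of glioma cells derived from tumours resistant to inhibition of the receptor CSF1R and kept for at most 3 passages. On each array, DNA of a line carried Cy5 and DNA of mouse liver carried Cy3. Line 1 has an animal number of its own, while lines 2 and 3 share another one and the same liver label. The labels name no strain, transgene, tumour model or inhibitor, and hold no neurospheres from tumours sensitive to the inhibitor, so every value below sets resistant cells against liver and none sets resistant against sensitive cells.

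PI3 kinases add a phosphate to the inositol ring of membrane lipids below activated growth factor receptors such as the IGF1 receptor, and the lipid they make recruits and activates AKT. A class IA enzyme is a pair of 1 catalytic and 1 regulatory subunit, so that the dose of either gene can matter to the pathway, and lipid phosphatases remove the products. Mutations of PIK3CA and PIK3R1 recur in human glioma, and the series title names signalling of the IGF1 receptor and PI3 kinase in the resistance.

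All values are log2 ratios of line over liver, centred so that the median autosomal probe of each array is 0. A gain from 2 to 3 copies in every cell would give 0.585 and a loss from 2 copies to 1 would give -1. A change carried by part of the cells and a smaller change carried by all of them cannot be told apart in such a ratio. None of the 9 genes reached either value in any line. Over all genes and lines, the mean of a gene's own probes ran between -0.27 (Pik3r4, line 1) and 0.40 (Pik3r2, line 1, a single probe). Over the 8 genes with at least 3 probes the highest value was 0.24 (Pik3cd, line 1). The windows stayed within -0.067 and 0.21.

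The arrays set the limits of these values. The spread of a single probe, estimated from the differences between neighbouring probes, was 0.384 on the array of line 1, the noisiest. It was 0.232 for line 2 and 0.237 for line 3. Liver DNA was well above background on 96.3%, 98.5% and 99.1% of probes in the arrays of lines 1, 2 and 3, and no spot reached saturation. Precision is limited by the number of arrays, and p-values rest on the spread between 3 lines, 2 of which share an animal. The fits used below moderate the spread of each gene or window towards that of all those tested. An interval can thus be narrower or wider than its own 3 values would give.

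**Figure D1:**
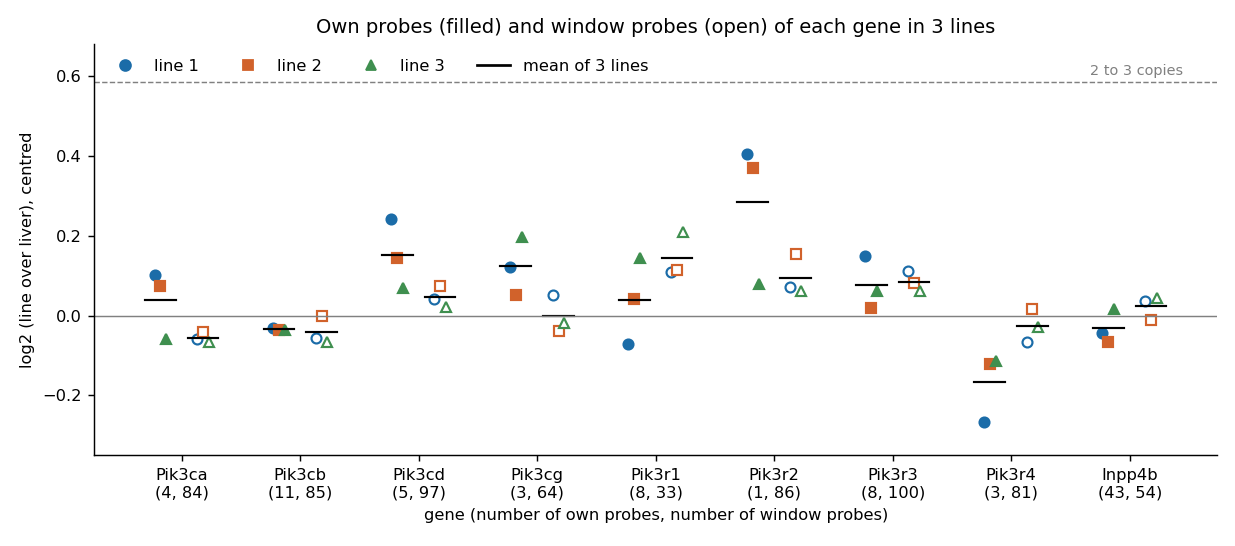
Mean centred log2 ratio of line over liver for each gene (filled symbols, own probes) and for its window (open symbols, other probes within 500 kb), with 1 symbol per line and a bar at the mean of 3 lines. Every symbol lies below the dashed line at 0.585, and Pik3r2, the highest, has 1 probe.

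With limma, 2 of the 8 genes with at least 3 probes had a mean different from 0 at an adjusted p under 0.05, Pik3cd above liver and Pik3r4 below it. The same test called 24.1% of the 9431 genes tested, 14.2% above and 9.92% below liver, so the share among the PI3 kinase genes is near that of all genes. At an unadjusted p under 0.05 the count was 3 of 8, against 39.8% of all genes tested. The median of the 8 means was 0.038, against 0.011 over all genes tested.

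Pik3ca, Pik3cb and Pik3cd encode the class IA catalytic subunits. Pik3ca encodes p110 alpha, the form most often mutated in human tumours, and its 4 probes lie at chr3:32340092-32363579 (mm9). They averaged 0.10, 0.074 and -0.059 in lines 1, 2 and 3, a mean of 0.039 ± 0.085 (SD, n = 3). The 84 window probes averaged -0.059, -0.041 and -0.067. The lines thus lay on both sides of 0 for the gene and below 0 in all 3 for the window. The gene mean had a 95% interval of -0.066 to 0.14 and did not pass (limma, adjusted p = 0.554). Its difference from the window, 0.16, 0.12 and 0.0083, averaged 0.094 and did not pass either (limma, adjusted p = 0.142). The window mean, -0.056 ± 0.013 (SD, n = 3), passed (limma, adjusted p = 0.0345), but was 0.0065 with 250 kb windows (adjusted p = 0.850), and without line 1, 2 or 3 its adjusted p was 0.0802, 0.0897 and 0.190.

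Pik3cb encodes p110 beta, the form that G protein-coupled receptors can also activate. Its 11 probes at chr9:98943136-99034931 (mm9) averaged -0.031, -0.035 and -0.037 in lines 1, 2 and 3, the tightest set among the 9 genes. The mean of -0.034 ± 0.0028 (SD, n = 3) had an interval of -0.12 to 0.055, since the fit moderates the spread of each gene towards that of all genes, and did not pass (limma, adjusted p = 0.540). The even means cover uneven probes. In line 1 they ran between -0.82 and 0.59, in line 2 between -0.37 and 0.46 and in line 3 between -0.25 and 0.56. One probe 71.3 kb from the first stood at 0.57, 0.46 and 0.56 in lines 1, 2 and 3, and the next, 6.8 kb on, at -0.50, -0.37 and -0.11. High and low probes thus stood side by side in every line. The difference of gene and window was 0.0063 (limma, adjusted p = 0.913).

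Pik3cd encodes p110 delta, the catalytic subunit best known from leukocytes. It has 5 probes over 35.4 kb at chr4:149031650-149067027 (mm9). Their sequences are shown because the call for the gene rests on these 5 probes, which disagree among themselves. They are the 60-base probes of the deposited scanner files in the order of the chromosome, with no strand given there.
Pik3cd probe 1: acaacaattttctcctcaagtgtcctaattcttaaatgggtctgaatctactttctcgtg
Pik3cd probe 2: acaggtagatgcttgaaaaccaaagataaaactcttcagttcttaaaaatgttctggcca
Pik3cd probe 3: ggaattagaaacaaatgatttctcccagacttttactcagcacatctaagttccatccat
Pik3cd probe 4: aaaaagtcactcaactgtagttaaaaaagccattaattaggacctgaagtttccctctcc
Pik3cd probe 5: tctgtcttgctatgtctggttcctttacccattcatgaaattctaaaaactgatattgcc
Each holds 21 or 22 G or C bases, so the probes hardly differ in base composition.

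The 5 probes of Pik3cd averaged 0.24, 0.14 and 0.068 in lines 1, 2 and 3, above liver in all 3, with a mean of 0.15 ± 0.087 (SD, n = 3). The 95% interval was 0.046 to 0.26 (limma, adjusted p = 0.0461). Probe 4 stood highest, at 0.84, 0.59 and 0.65 in lines 1, 2 and 3. Its signals were 570, 577 and 493 for line DNA, against 319, 383 and 314 for liver DNA. Probe 5, 9.2 kb further on, stood at -0.40, -0.28 and -0.20, and probe 1 at -0.17, -0.081 and -0.31. Both ends of the gene were thus below liver in all 3 lines while probes 3 and 4 were above it. Probe 2 differed most between lines, with 0.64, 0.23 and -0.025. Probes 2 and 4 were the dimmest of the 5, and probes 1, 3 and 5 had signals of 1682 to 2370 in both dyes.

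Pik3cd did not pass once any 1 line was left out, with adjusted p of 0.0642, 0.164 and 0.0567 without line 1, 2 or 3 (limma). It also missed with lines 2 and 3 averaged as 1 animal (0.105), with the median over probes in place of the mean (0.0987) and after normexp background correction (0.0841). It kept the call after loess, which levels the ratio over brightness within an array (mean 0.16, adjusted p = 0.0335), and in the authors' value table (mean 0.23, adjusted p = 0.0144). Leaving out probes not well above background removed none of its 5 probes. The 97 window probes averaged 0.042, 0.073 and 0.021. The gene minus window difference, 0.20, 0.072 and 0.047 in lines 1, 2 and 3, averaged 0.11 ± 0.082 (SD, n = 3) and did not pass (limma, adjusted p = 0.114). The nearest named gene with at least 3 probes at lower coordinates, Clstn1, a calsyntenin of neurons, lies 14.5 kb away and averaged 0.31, 0.099 and 0.039 (limma, adjusted p = 0.0844). The order of the lines was the same in both genes, line 1 highest and line 3 lowest. At higher coordinates, Slc25a33, a mitochondrial nucleotide carrier, averaged -0.060, 0.032 and -0.031.

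Pik3cg encodes p110 gamma, the class IB subunit activated by G protein-coupled receptors in myeloid cells. Its 3 probes at chr12:32861085-32884844 (mm9) averaged 0.12, 0.051 and 0.20 in lines 1, 2 and 3. The mean of 0.12 ± 0.073 (SD, n = 3) was positive in 3 of 3 lines and narrowly missed the threshold (limma, adjusted p = 0.0748), as did the gene minus window difference of 0.13 (adjusted p = 0.0738). With lines 2 and 3 alone, which share an animal, both passed (adjusted p = 0.0309 and 0.00425). Neither passed without line 2 (0.133 and 0.190), without line 3 (0.358 and 0.409) or with lines 2 and 3 averaged as 1 animal (0.179 and 0.234). The median over probes gave no call either (limma, adjusted p = 0.253 and 0.224). Both passed after normexp background correction (limma, adjusted p = 0.0222 and 0.0278) and after loess (0.0463 and 0.0497). Without dim probes the difference passed (0.0391) and the mean did not (0.0659). The first probe was the 1 of 3 above liver in every line, with 0.40, 0.35 and 0.46, whereas the third stood at -0.43, -0.11 and 0.11. The 64 window probes averaged near 0, at 0.052, -0.039 and -0.019, but were uneven. The 100 kb next to the gene at lower coordinates averaged 0.36, 0.30 and 0.19 in lines 1, 2 and 3 over 6 probes. At higher coordinates the nearest 100 kb averaged -0.21, -0.17 and -0.14 over 5 probes.

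**Figure D2:**
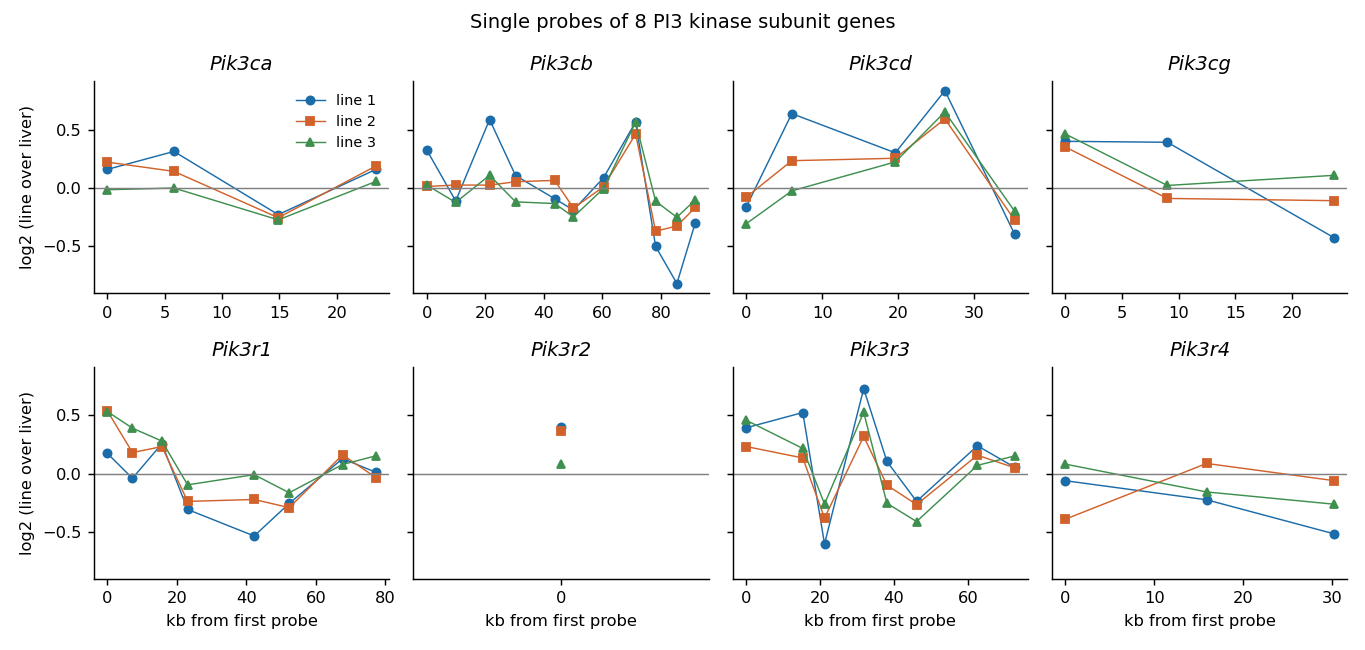
Centred log2 ratio of every probe of the 8 subunit genes against its distance in kb from the gene's first probe, with 1 colour and symbol per line. Within most genes, probes of 1 gene lie both above and below 0 and move together in the 3 lines, as probes 4 and 5 of Pik3cd do.

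Among the regulatory subunits, Pik3r1 encodes p85 alpha and its shorter forms, which stabilise the catalytic subunit and hold it inactive until a receptor engages it. Its 8 probes at chr13:102459422-102536771 (mm9) averaged -0.072, 0.040 and 0.15 in lines 1, 2 and 3. The mean of 0.038 ± 0.11 (SD, n = 3) did not pass (limma, adjusted p = 0.592). The first 3 probes, at the low end of the gene, averaged over the lines 0.41, 0.18 and 0.26, and the next 3 averaged -0.21, -0.26 and -0.24. The first probe read 0.17, 0.54 and 0.53 in lines 1, 2 and 3, and the fifth -0.54, -0.22 and -0.0092, so that line 1 was the lowest at both.

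Around Pik3r1 the level was higher than in the gene. The 33 window probes averaged 0.11, 0.11 and 0.21 in lines 1, 2 and 3, a mean of 0.14 ± 0.056 (SD, n = 3) with an interval of 0.10 to 0.19 (limma, adjusted p = 1.16e-06). The interval and the p-value rest on a spread moderated towards that of all windows. The interval is narrower than these 3 values alone would give. This mean exceeded 99.2% of the 9431 windows tested. Both sides were above liver in every line, with 0.10, 0.14 and 0.24 over the 18 probes at lower coordinates and 0.12, 0.087 and 0.17 over the 15 at higher ones. The gene minus window difference was thus negative in 3 of 3 lines, at -0.18, -0.074 and -0.064, but its mean of -0.11 did not pass (limma, adjusted p = 0.0947). The window mean passed in 13 of 13 alternatives, with values of 0.11 to 0.19 and limma adjusted p of 1.79e-08 to 0.00750. The lowest p came from lines 2 and 3 alone, which share an animal. With lines 2 and 3 averaged as 1 animal the mean was 0.14 (limma, adjusted p = 7.96e-06).

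In all, 3 of the 8 windows passed, those of Pik3r1 and Pik3r3 above liver and that of Pik3ca below it, against 42.5% of all windows tested (31.9% above and 10.6% below). A window value of 0.2 or more away from 0 in at least 1 line, which Pik3r1 reached in line 3, was met by 0.806% of windows, whatever their number of probes. Part of the Pik3r1 window is the transcript AK029970, 238 kb from the gene, whose 3 probes averaged 0.60, 0.42 and 0.45 (limma, adjusted p = 0.00303). Without these 3 probes, an alternative chosen after seeing the data, the other 30 averaged 0.061, 0.085 and 0.19, a mean of 0.11 ± 0.066 (SD, n = 3). The next named gene with at least 3 probes on the other side, the kinase gene Mast4, lies 988 kb away and averaged -0.0073, -0.014 and -0.043 over 60 probes.

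The window of Pik3r1 was uneven within itself. In steps of 100 kb away from the gene, the lower side averaged 0.28, 0.064, 0.28, 0.0063 and 0.11 over the lines, with 3 to 5 probes a step. The higher side averaged 0.31, -0.13, 0.12, 0.15 and 0.12, with 2 to 4 probes a step. The 100 kb next to the gene stood above liver in every line on both sides, at 0.30, 0.23 and 0.31 on the lower side and at 0.32, 0.28 and 0.34 on the higher side. The gene between them averaged 0.038, and its difference from these steps alone was not tested.

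**Figure D3:**
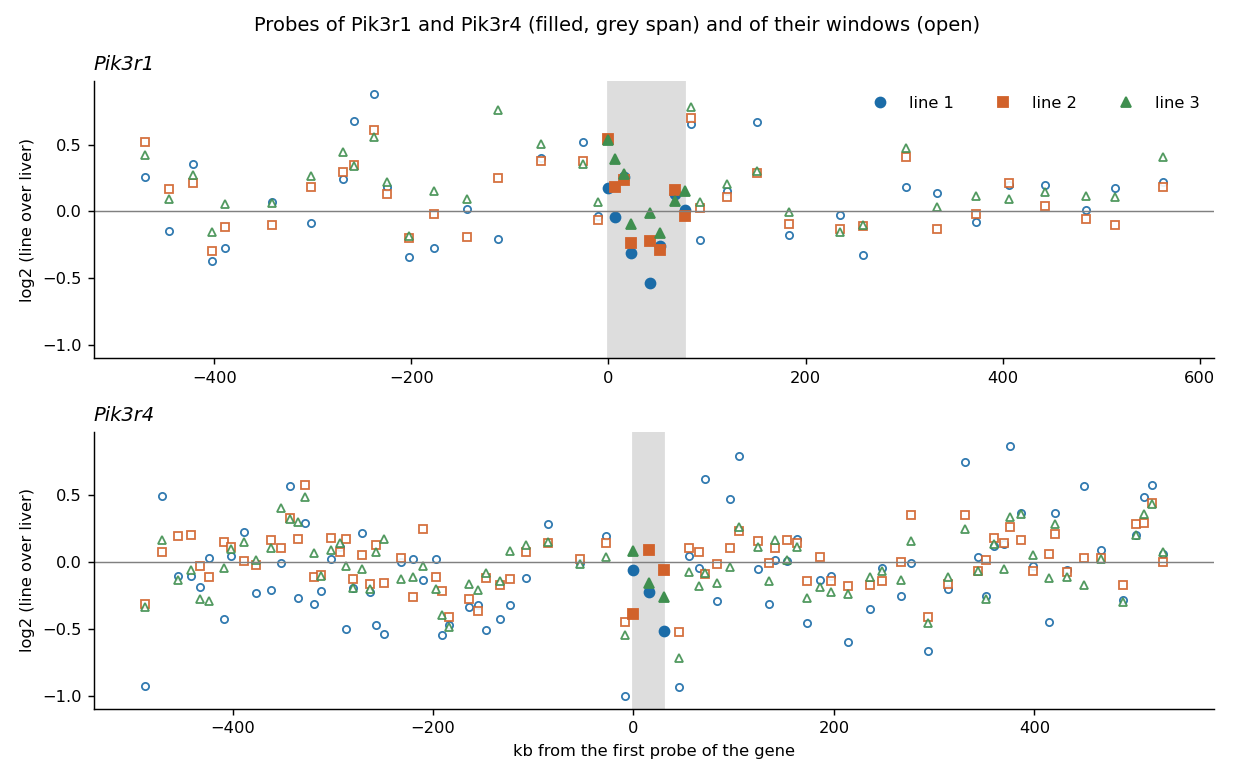
Centred log2 ratio of the probes of Pik3r1 and Pik3r4 (filled symbols, grey span) and of the probes within 500 kb (open symbols), against the distance in kb from the gene's first probe, with 1 colour and symbol per line. The Pik3r1 window lies mostly above 0, with means of 0.11, 0.11 and 0.21 in lines 1, 2 and 3, and the open symbols just beside Pik3r4 on each side lie below its own probes.

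Pik3r2 encodes p85 beta. The array has 1 probe of that name, so the gene was not in the tests of genes with at least 3 probes, and its sequence is shown because every value of the gene is this 1 probe at chr8:73294109-73294168 (mm9).
Pik3r2 probe 1: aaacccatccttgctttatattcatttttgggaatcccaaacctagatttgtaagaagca
It read 0.40, 0.37 and 0.079 in lines 1, 2 and 3, a mean of 0.28 ± 0.18 (SD, n = 3). The line signals of 471, 475 and 379, against liver signals of 356, 368 and 359, make it a dim probe. In a fit that admits genes with 1 probe it did not pass (limma, adjusted p = 0.0526). Its 86 window probes averaged 0.071, 0.15 and 0.061, above liver in all 3 lines and below the gene's own probe in each of them. The first 300 kb at lower coordinates held the highest steps of 100 kb in the window, 0.15, 0.22 and 0.19 averaged over the lines.

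Pik3r3 encodes p55 gamma, a regulatory subunit prominent in brain. Its 8 probes at chr4:115895952-115968593 (mm9) averaged 0.15, 0.018 and 0.062 in lines 1, 2 and 3. The mean of 0.077 ± 0.067 (SD, n = 3), positive in 3 of 3 lines, did not pass (limma, adjusted p = 0.222). Of the 8 probes, 5 were above liver in all lines and 2 below it in all lines. The fourth stood at 0.73, 0.32 and 0.53 and the third, 10.6 kb before it, at -0.60, -0.38 and -0.26.

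The 100 window probes of Pik3r3 averaged 0.11, 0.081 and 0.061, a mean of 0.084 that passed (limma, adjusted p = 0.00160). It did not pass with 250 kb windows (0.0068, adjusted p = 0.842) or without dim probes (0.049, adjusted p = 0.0746). The step of 400 to 500 kb at higher coordinates averaged 0.42, 0.19 and 0.17 over 12 probes, and the step of 100 to 200 kb on that side -0.14, -0.14 and -0.071 over 10 probes. The 2 highest steps thus lay over 300 kb from the gene, and the gene minus window difference was -0.0077 (limma, adjusted p = 0.899).

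Pik3r4 encodes the Vps15 protein, which holds the class III enzyme Vps34 on membranes of the endosome and autophagy pathways and is no partner of the class IA subunits. It has 3 probes over 30.3 kb at chr9:105545978-105576294 (mm9), shown because it is the gene called both against liver and against its window.
Pik3r4 probe 1: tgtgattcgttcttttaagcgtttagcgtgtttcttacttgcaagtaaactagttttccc
Pik3r4 probe 2: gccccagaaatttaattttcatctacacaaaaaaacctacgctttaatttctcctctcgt
Pik3r4 probe 3: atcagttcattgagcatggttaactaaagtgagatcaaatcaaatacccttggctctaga
They averaged -0.27, -0.12 and -0.11 in lines 1, 2 and 3, below liver in all 3. The mean was -0.17 ± 0.087 (SD, n = 3), with an interval of -0.27 to -0.062 (limma, adjusted p = 0.0335). The lowest line value is far from the -1 of a loss of 1 copy in every cell.

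The probes of Pik3r4 did not order the lines alike. Probe 1 read -0.061, -0.39 and 0.081, probe 2 read -0.23, 0.087 and -0.16, and probe 3 read -0.52, -0.061 and -0.26 in lines 1, 2 and 3. Only probe 3 was below liver in every line. It was the brightest of the 3 in line and liver DNA of every array, with signals of 719 to 824 for line DNA, against 847 to 1179 for liver DNA.

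The 81 window probes of Pik3r4 averaged -0.066, 0.015 and -0.028. The gene minus window difference was -0.20, -0.14 and -0.085, negative in 3 of 3 lines, with a mean of -0.14 ± 0.058 (SD, n = 3). It passed (limma, adjusted p = 0.0425), and Pik3r4 was the 1 gene of 8 to do so, against 23.9% of all genes tested (10.1% above and 13.9% below their windows). At an unadjusted p under 0.05 there were 4 of 8, against 40.1% of all genes tested. The nearest window probes on both sides were lower than the gene itself: the one 8.2 kb below it read -1.0, -0.45 and -0.54 in lines 1, 2 and 3, and the one 15.2 kb above it -0.94, -0.52 and -0.72. The next probes outwards, 27.5 kb below and 25.4 kb above, read 0.19, 0.14 and 0.036 and 0.045, 0.11 and -0.077.

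The call of Pik3r4 against its window was lost with a narrower window and kept with a wider one. With 250 kb windows the window mean was -0.10 (limma, adjusted p = 0.00515) and the gene minus window difference -0.065 (adjusted p = 0.255). With 1 Mb windows the difference was -0.15 (limma, adjusted p = 0.0393). The step of 100 to 200 kb at lower coordinates averaged -0.34, -0.19 and -0.16 over 9 probes, lower than the gene in lines 1, 2 and 3. Beyond 300 kb at higher coordinates, the steps averaged 0.14 and 0.12 over the lines. Against liver, Pik3r4 missed without line 2 (limma, adjusted p = 0.0926), without line 3 (0.0623), with lines 2 and 3 averaged (0.0872) and with the median over probes (0.0748). After normexp background correction the mean against liver was -0.36 (adjusted p = 0.00189) and after loess -0.30 (adjusted p = 0.00574). The call against its window was lost without line 2 (limma, adjusted p = 0.181), without line 3 (0.0720), with lines 2 and 3 averaged (0.0886) and with the median over probes (0.0967). That difference was -0.32 after normexp (adjusted p = 0.0104) and -0.25 after loess (adjusted p = 0.0173). The nearest named gene with at least 3 probes at lower coordinates, the transcript ENSMUST00000163274, lies 123 kb away and averaged -0.42, -0.14 and -0.048 over 3 probes (limma, adjusted p = 0.0591). On the other side Col6a6, a collagen gene 25.4 kb away, averaged 0.080, 0.070 and -0.023 over 12 probes (limma, adjusted p = 0.481).

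Inpp4b, a phosphatase that removes a phosphate from a lipid product of class I PI3 kinases and is known as a tumour suppressor in several human epithelia, has the most probes. Its 43 probes span 399.6 kb at chr8:84244435-84644080 (mm9) and averaged -0.044, -0.067 and 0.016 in lines 1, 2 and 3. The mean of -0.032 ± 0.043 (SD, n = 3) had an interval of -0.13 to 0.062 (limma, adjusted p = 0.586). The 54 window probes averaged 0.037, -0.010 and 0.044, and the difference of -0.055 did not pass (limma, adjusted p = 0.284).

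No stretch of 100 kb within Inpp4b stood near the level of a lost copy. From the lower coordinates upwards, the 4 stretches of 100 kb, with 10 to 12 probes each, averaged -0.031, -0.11, 0.028 and -0.017 over the lines. The second was below liver in all 3 lines, at -0.075, -0.13 and -0.12 in lines 1, 2 and 3. Single probes of the gene ran between -0.59 and 0.67 in line 1, between -0.45 and 0.44 in line 2 and between -0.47 and 0.72 in line 3. The 0.72 is the dimmest probe of the gene, with signals of 136 for line and 82 for liver DNA. The next highest value in line 3 was 0.52. The nearest named genes with at least 3 probes were the transcript ENSMUST00000172167 at 0.065 (limma, adjusted p = 0.268) and Il15, a cytokine gene 215 kb away, at -0.16 (limma, adjusted p = 0.0347).

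**Figure D4:**
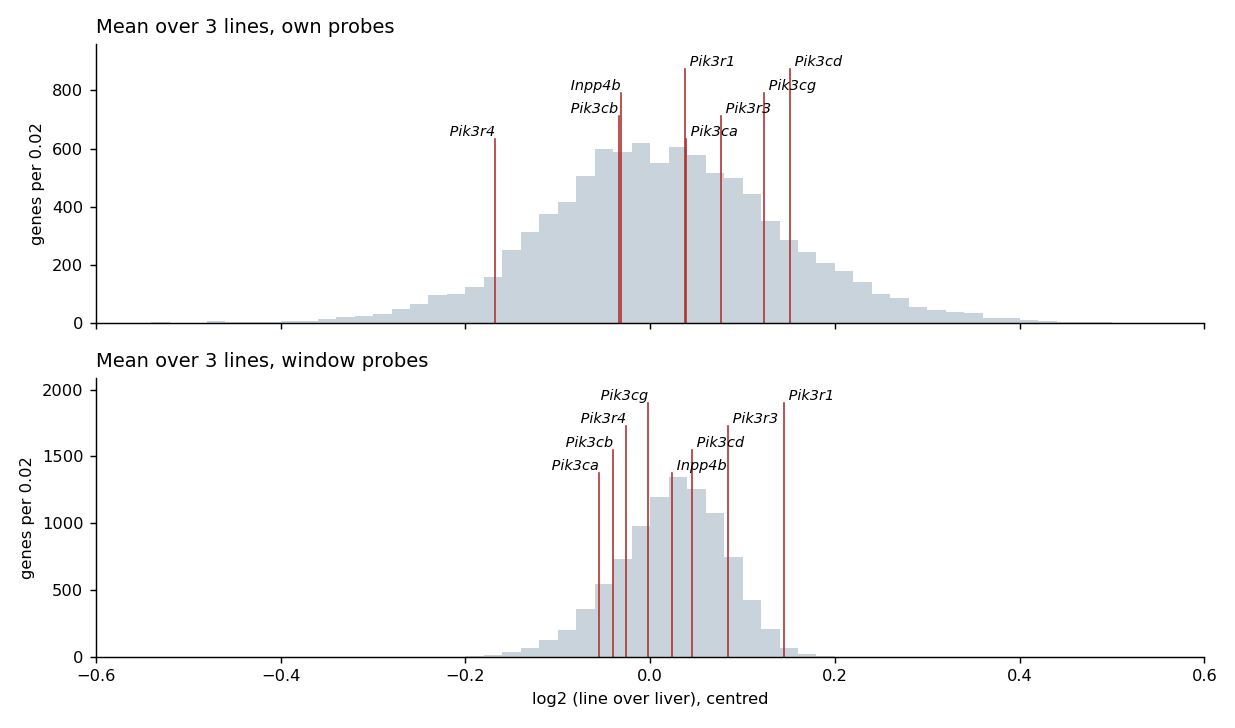
Number of genes per 0.02 of log2 ratio (bars, 9431 genes with at least 3 probes), for the mean over 3 lines of own probes and of window probes, with the 8 genes tested as labelled lines. Pik3cd (0.15) and Pik3r4 (-0.17) lie on the flanks of the distribution of own probes and the Pik3r1 window (0.14) in the upper tail of the windows.

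Lines 2 and 3 were also set against line 1, which compares 1 animal with 1 other. The spread comes from lines 2 and 3 alone, and line 1 is assumed to vary like them. Its single probes spread more, however, at 0.384 against 0.232 and 0.237 in lines 2 and 3. The intervals may thus be too narrow and the shares called too high. The test speaks of these arrays and not of a difference between animals. None of the 8 genes passed in limma, against 8.56% of all genes tested (3.98% above and 4.58% below), and 1 of 8 did at an unadjusted p under 0.05, against 21.8% of all genes. That 1 was Pik3r1, with 0.040 and 0.15 in lines 2 and 3 and -0.072 in line 1, a difference of 0.16 (limma, adjusted p = 0.213). Pik3r4 was nearest to 0 in lines 2 and 3, at -0.12 and -0.11, and farthest in line 1 at -0.27, a difference of 0.15 (limma, adjusted p = 0.261). Pik3cd had 0.14 and 0.068 in lines 2 and 3 and 0.24 in line 1, a difference of -0.14 with an interval of -0.29 to 0.023 (limma, adjusted p = 0.320).

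Dividing each chromosome into segments of constant level gave no called gain or loss over any of the 9 genes. A call needed a segment mean of 0.2 or more from 0. No segment was called anywhere on the arrays, out of 21, 47 and 32 in lines 1, 2 and 3. Their means ran between -0.12 and 0.14. A segment needed at least 10 probes, more than any of the genes but Pik3cb and Inpp4b has. A change confined to another of the genes could thus form no segment of its own. The penalty also bars short segments with small shifts. In line 1 each gene lay in a segment of its whole chromosome. In line 2, Pik3cd and Pik3r3 shared a segment of 40.2 Mb on chromosome 4 with a mean of 0.082 over 3182 probes. In line 3, Pik3r1 lay in a segment of 23.2 Mb on chromosome 13 with a mean of 0.057. At a lower penalty (2 times log(n)), with segments of 5 probes allowed, 2 of the 9 genes fell in a called segment in line 3 and none did in lines 1 and 2. One holds Pik3r1 and spans 1.87 Mb at chr13:101548257-103419554 (73 probes, mean 0.20), at the limit of a call. The other holds the first probe of Pik3r3 in a stretch of 5 probes at chr4:115858049-115896011 (mean 0.55), and the other 7 probes of the gene lay in the next segment at 0.0079. That setting made 5, 18 and 105 calls among 86, 355 and 477 segments in lines 1, 2 and 3.

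The ratio of a probe moved with its brightness. Over the 86 probes of the 9 genes, the correlation of the ratio with the mean log2 signal of both dyes was -0.45, -0.37 and -0.47 in lines 1, 2 and 3, and -0.49, -0.47 and -0.45 over all probes. These are descriptions across probes of 1 array, whose 2 measures share the same signals. In line 1 the dimmest tercile of all probes held 25 of the 86 with a median of 0.24, and the brightest tercile held 27 with a median of -0.24. Probes 2 and 4 of Pik3cd, both dim, were high in line 1 as most dim probes were. Its probes 1 and 5 were bright and below 0 in every line, as most bright probes were. Its probe 3 was bright too, but above 0 in every line. Of the dim probes 1 and 2 of Pik3r4, both were below 0 in line 1, probe 2 was above 0 in line 2 and probe 1 above 0 in line 3. The part of brightness in the values of either gene was not tested beyond the alternatives named.

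**Figure D5:**
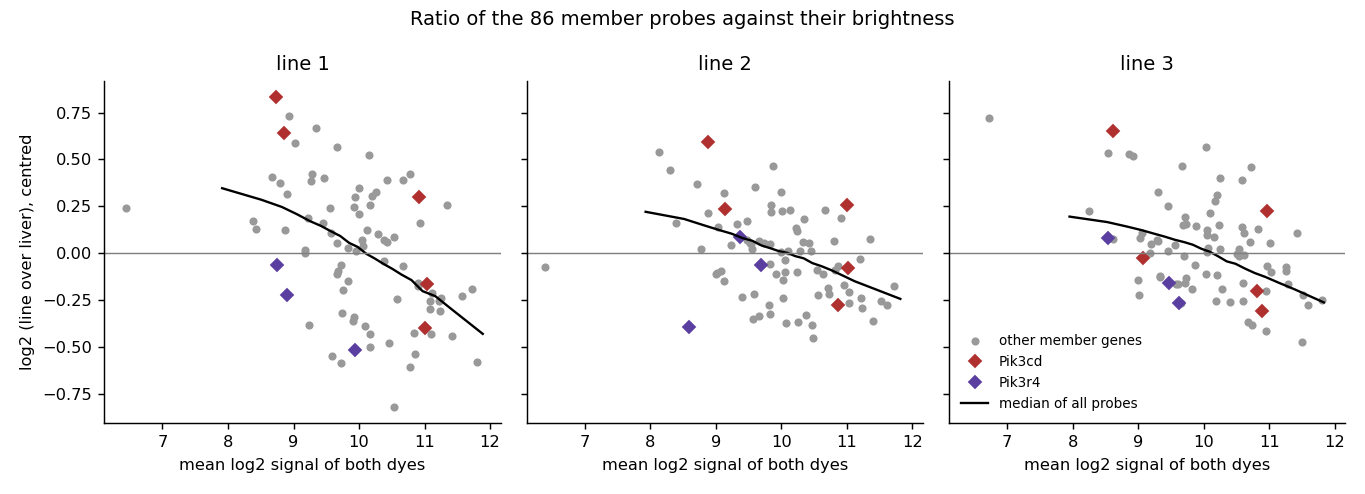
Centred log2 ratio of the 86 probes against the mean log2 signal of both dyes, 1 panel per line, with Pik3cd and Pik3r4 as diamonds and the median of all probes as a black curve. Dim probes lie higher on all 3 arrays (line 1 medians of 0.24 in the dimmest tercile and -0.24 in the brightest), while the Pik3r4 diamonds of line 1 lie below the curve.

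The lines were compared probe by probe. Over the 86 probes, the correlation was 0.73 for lines 1 and 2, 0.59 for lines 1 and 3 and 0.74 for lines 2 and 3. Over all probes it was 0.69, 0.64 and 0.81. The points share probe sequence, dye orientation and slide, and lines 2 and 3 share the liver label. Of the 86 probes, 29 (33.7%) were above liver in all 3 lines and 27 (31.4%) below it, against 32.9% and 34.2% of all probes. The others lay on both sides of 0.

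Of the 18 nearest named genes with at least 3 probes, 1 on each side of each of the 9 genes, 4 passed against liver in limma, where 24.1% of all genes did. These were AK029970 and Il15, given above, the transcript ENSMUST00000108243 9.7 kb from Pik3ca, at 0.18 (adjusted p = 0.0274), and Nsun4, a mitochondrial methyltransferase gene 172 kb from Pik3r3, at 0.17 (adjusted p = 0.0364).

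For each tested gene, the gene on another chromosome with the closest 3 line values was Pla2g4d for Pik3ca (distance 0.011), Rpgrip1l for Pik3cb (0.0077), Klhl8 for Pik3cd (0.0058) and Jarid2 for Pik3cg (0.0078). It was Ppfibp1 for Pik3r1 (0.024), Mcc for Pik3r3 (0.013), Rerg for Pik3r4 (0.0081) and Rit2 for Inpp4b (0.0083). The distance is Euclidean, over 3 lines. Between 28 (Pik3cg and Pik3r4) and 240 genes (Pik3cb) lay within 0.05 of a gene, so 3 lines single out no gene as alike.

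A list of 34 other phosphoinositide genes was read the same way, among them class II and III PI3 kinases, inositol 5-phosphatases, synaptojanins and myotubularins, and 27 had at least 3 probes. Against liver, 2 of the 27 passed, both above it and none below. Pik3c2a, a class II PI3 kinase of clathrin-coated pits, averaged 0.32, 0.15 and 0.22 in lines 1, 2 and 3 (mean 0.23 ± 0.086, SD, n = 3, limma, adjusted p = 0.0125). Inpp5f, a phosphatase of endosomal phosphoinositides, averaged 0.19, 0.15 and 0.15 (limma, adjusted p = 0.0228). Both also passed above their windows, where 10.1% of all genes did, at 0.16 and 0.13 (limma, adjusted p = 0.0374 and 0.0397). Below their windows, 3 of the 27 passed, against 13.9% of all genes tested, Inpp5b at -0.18, Mtmr7 at -0.16 and Synj1 at -0.13 (limma, adjusted p = 0.0182, 0.0276 and 0.0489). The median of the 27 means was -0.024, against 0.011 over all genes tested, and 2 of 27 is below the 24.1% called among all genes. Of their windows 9 of 27 passed, all above liver, against 42.5% of all windows and 31.9% above liver.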

How the data were processed

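The deposited scanner files hold spot intensity values which, per the file headers, the authors made with Agilent Feature Extraction 10.7.3.1 (background-subtracted, detrended, dye-normalised) on the mm9 grid. The headers give the method of dye normalisation only as codes, which are not explained there. The log10 ratios deposited by the authors (scanner columns and a value table with column medians of 0.000435, -0.00146 and -0.00271) served for checks and as an alternative, and no source used here gives the table's centring. From the intensities, log2 of Cy5 over Cy3 was computed for 180880 spots less 6575 controls and outlier spots, averaged per probe and centred on the autosomal median. Per-gene values of 9431 genes with at least 3 probes and 10 window probes were tested with limma 3.58.1 (lmFit, eBayes, 2-sided, Benjamini-Hochberg, threshold 0.05) in R 4.3.3, and the steps were tested on simulated data. Segments came from penalised least squares with a penalty of 10 times log(n), at least 10 probes and a call at 0.2. The remaining work was done in Python 3.11.15 (numba 0.67.0, numpy 2.4.6, pandas 2.3.3, matplotlib 3.10.9). The 3 arrays share 1 slide and dyes were not swapped, so effects of dye and slide cannot be told apart from a difference between line and liver. Alternatives changed the background correction, loess, the value table, centring, dim probes, the median, the lines and animals used, the probe minimum, the window and the segmentation. With 3 lines, an exact sign flip test could not go below p = 0.25.

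The members and lists were chosen with earlier results of these data known. Named genes are the 9 members, the nearest named gene with at least 3 probes on each side, the closest gene by line values, and other phosphoinositide genes past a threshold. Gene names come from the array (9 of 9 matched RefSeq names), and exon, intron and UTR annotation of mm9 was not used here.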

Additional observations from a re-analysis of the deposited data

How the results depend on the processing

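The counts over all genes moved with the settings. Against liver, 2275 of 9431 genes passed: 730 with lines 2 and 3 averaged as 1 animal, 4767 of 21107 once single-probe genes were admitted, 749 of 2759 when 10 probes were required, and 1069 to 3193 with 1 line left out. Of these calls 1339 were above liver, but 1081 of 2047 after loess, 851 of 1942 in the authors' value table and 1172 of 2346 without dim probes. Against windows, 2256 passed: 1427 after loess, 4670 with at least 1 probe, 773 with at least 10, and 966 to 3844 with 1 line left out. Of the windows, 4010 passed (3009 above liver), and 1993 to 3524 with 1 line left out; 1792 of 3169 were above liver in the value table and 2037 of 3322 without dim probes. Between animals, 807 passed: 113 after normexp, 505 after loess, 1378 in the value table, 374 with the median over probes, 2379 with at least 1 probe and 73 with at least 10.

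Of the PI3 kinase genes, 2 of 8 passed against liver. In the value table, where Pik3r4 and Pik3cg had under 3 probes, 1 of 6 passed, against 22.5% of all genes. The count was 0 with the median over probes (19.9% of all genes) and with lines 2 and 3 averaged (7.74%). It was also 0 with at least 1 probe (22.6%) or with at least 10, which leaves 2 of the genes (27.1%). With 1 line left out 0 to 2 passed, against 11.3% to 33.9% of all genes. After loess 3 of 8 passed, Pik3cg with the other 2, against 21.7% of all genes. After normexp 2 of 8 passed, Pik3r4 and, in place of Pik3cd, Pik3cg, against 23.6% of all genes. Against windows 1 passed: 3 after normexp or in the value table, 2 after loess or without dim probes, 0 with the median over probes, with lines 2 and 3 averaged, with at least 1 or 10 probes or with 250 kb windows, and 0 to 2 with 1 line left out. Between animals, 1 of 8 passed with the median over probes, against 3.97% of all genes: Pik3cg turned to -0.38 (limma, adjusted p = 0.0464), against 0.0023 with the mean. The window of Pik3ca turned to 0.0065 with 250 kb windows. The cause was not tested in either case. In line 3, 2 genes fell in a called segment at a penalty of 2 times log(n) with at least 5 probes. Of 350 values of single genes tested under alternatives, 308 stayed on their side of the threshold, among them uncalled values of either sign. Of the others, 26 lost the call, 14 gained it and 2 reversed. Another 17 values had no test. The calls themselves held less often. Against liver, Pik3cd kept its call in 4 of 11 alternatives and Pik3r4 in 5 of 10. Against its window, Pik3r4 kept it in 6 of 12. The window calls were kept in 13 of 13 for Pik3r1, 11 of 13 for Pik3r3 and 6 of 13 for Pik3ca.

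No paired analysis was possible because the 3 lines form 1 group, so no 2 groups share replicate numbers. Each log2 ratio already sets a line against the liver on its own array, and averaging lines 2 and 3 is the alternative for their shared animal. Probes lie several kb apart, so changes between probes were not detectable, and genes with 1 to 3 probes (Pik3r2, Pik3cg, Pik3r4) rest on few spots. Of the 86 probes, 75 had a value on all arrays in the authors' value table. Without a dye swap, any effect of probe or dye that all arrays share enters every mean against liver.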
